A study of Mus musculus with 10 samples.

Results

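Wild-type neutrophils were compared with wild-type haematopoietic stem and progenitor cells (HSPC) of mouse bone marrow, across every gene that reached 1 RPKM (reads per kilobase of gene, scaled to library size) in at least 2 of the 4 libraries. These were 9643 of the 16771 genes listed: 7146 reached that level in both cell types, 766 in neutrophil libraries only and 1731 in HSPC libraries only. The study profiled RNA from HSPC carrying Npm1c, Flt3-ITD or both mutations, from wild-type HSPC and from wild-type neutrophils, in 10 libraries of 5 groups. The comparison taken here holds wild-type marrow neutrophils, as isolated, against wild-type HSPC, with no mutant allele in either group. Both groups came from C57BL/6 mice and were isolated from flushed marrow of the hind leg bones after lysis of red cells. The neutrophils were obtained with a magnetic neutrophil isolation kit and the HSPC by magnetic depletion of lineage-positive cells, so the HSPC group is the whole lineage-negative fraction and not a sorted stem cell. Each group had 2 libraries, described as biological replicates. The samples are bulk populations, in which fewer cells of a type and less RNA per cell cannot be told apart.

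Neutrophils arise from progenitors through promyelocyte, myelocyte and band stages, and load their granules in sequence: primary (azurophil) granules first, then specific granules, then gelatinase granules and secretory vesicles. The lineage is specified by C/EBP and PU.1 factors, with C/EBPε required for specific granules. Mature neutrophils have left the cell cycle, carry a segmented nucleus, depend mainly on glycolysis and sense bacteria and chemoattractants through surface receptors.

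Library depth, recovered from the step that 1 read is worth in each table, was 40783015 and 42986220 reads for neutrophils and 55334692 and 57824373 for HSPC. The deposited RPKM scale was tilted between the cell types. The 10 highest genes took 44.5% and 44.5% of the summed RPKM in the neutrophil libraries, against 10.8% and 11.2% in HSPC, and the median tested gene was 0.78 lower in neutrophils on the log2 scale. Changes are therefore given relative to that median gene, as log2 of RPKM plus 0.5 with its standard error, from a limma fit over all 10 libraries. This scale understates the change of genes near 0 RPKM. "Rose" and "fell" are used for genes with a Benjamini-Hochberg adjusted p below 0.05 and at least a 2-fold change relative to the median gene. Since the shift is smaller than 1 log2 unit, a gene called at 2-fold keeps its direction on the deposited scale. The median difference between replicates was 0.04 in neutrophils and 0.05 in HSPC (absolute log2), against 1.28 between the cell types.

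By this rule 2760 genes rose in neutrophils (28.6% of those tested) and 1984 fell (20.6%). An adjusted p alone was below 0.05 for 8748 genes (90.7%), so the fold and not the p set nearly every call. The share of calls that were rises was 58.2%, and it depended on scaling: it was 29.1% on the scale as deposited (1731 rose, 4212 fell), 20.8% with every library set to the same summed RPKM (1333 and 5085) and 43.0% after quantile normalization (2230 and 2951). With median-of-ratios scaling 2793 rose and 2138 fell. Counts of list members below, also those on another scaling, are to be read beside these totals over all 9643 tested genes. The changes were lopsided in size: 396 genes rose at least 16-fold, while 0 fell that far, and at 4-fold the counts were 1488 and 337. The limit on falls is partly set by the scale, since a gene cannot go below the 0.5 RPKM added. Of the rises, 763 were of genes that reached 1 RPKM in neutrophils only, which had to be higher there to be tested, and 594 of the falls were of genes that did so in HSPC only.

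**Figure D1:**
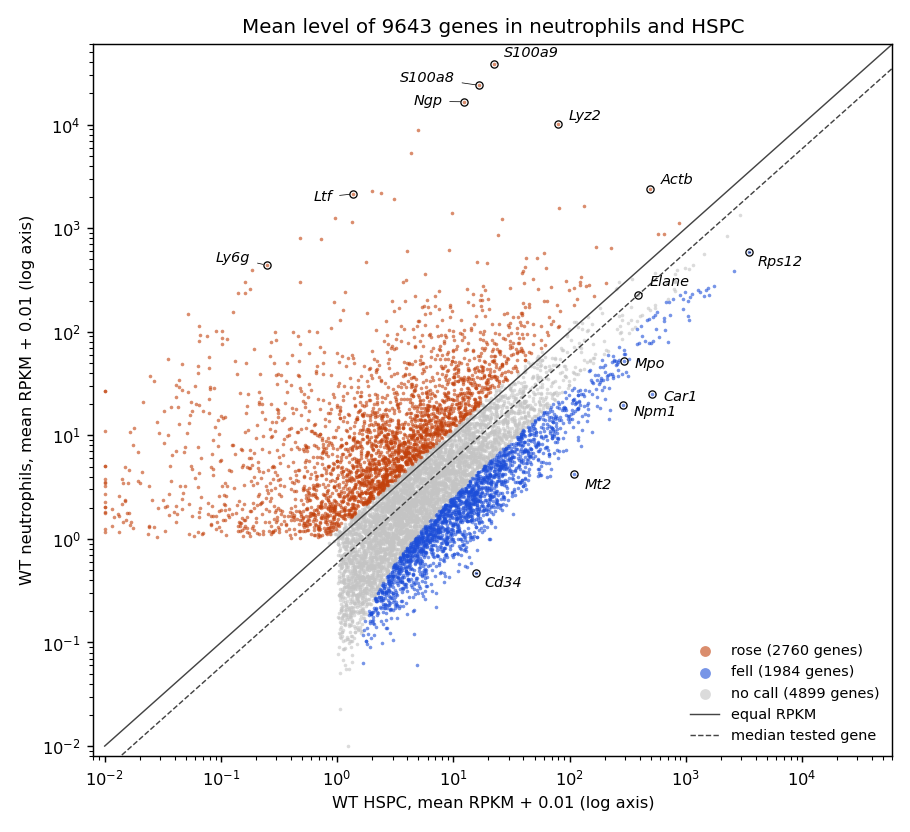
Mean RPKM of each tested gene in neutrophils (vertical, log axis) against HSPC (horizontal, log axis), coloured by call; the solid line marks equal RPKM and the dashed line the median tested gene. S100a9, S100a8 and Ngp stand far above both lines at 38274, 23910 and 16606 RPKM in neutrophils, while Cd34, Mt2, Car1 and Npm1 lie below them and Elane sits on the dashed line.

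The transcriptome of neutrophils was headed by a few antimicrobial genes. S100a9, a subunit of the calcium-binding alarmin calprotectin, was at 37932 and 38616 RPKM in neutrophils, against 26.6 and 17.7 in HSPC (relative log2 change 11.53 ± 0.61, adjusted p = 1.78e-07). Its partner S100a8 was at 23686 and 24133 RPKM in neutrophils, against 19.0 and 14.5 in HSPC (11.23 ± 0.53, adjusted p = 8.72e-08). Ngp, neutrophilic granule protein, was at 17295 and 15916 RPKM in neutrophils, against 13.5 and 11.1 in HSPC (11.12 ± 0.54, adjusted p = 1e-07). These 3 genes alone made up 31.3% and 31.2% of the summed RPKM of the neutrophil libraries, against 0.0319% and 0.023% in HSPC, and the libraries of the 2 cell types did not approach each other. The next highest in neutrophils were Lyz2, the myeloid lysozyme, at 10107 and 10199 RPKM, and Retnlg, a resistin-like secreted protein, at 8994 and 8784. Camp, Actb, Mmp8, Chil3, Ltf, Ifitm6 and Tmsb4x completed the 12 highest, at means from 1623 to 5336 RPKM, and each of them rose.

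The 15 largest rises were S100a9, Retnlg, S100a8, Ngp, Ltf, Camp, Mmp8, Cd177, Mmp9, Chil3, Lcn2, Wfdc21, Ly6g, Fpr1 and Ifitm6, from 11.53 down to 9.84. Most of them are granule or cytosolic proteins described below. Ly6g, the antigen by which mouse neutrophils are recognised, was at 441 and 438 RPKM in neutrophils, against 0.256 and 0.218 in HSPC (9.999 ± 0.30). Ifitm6, a myeloid member of the interferon-induced transmembrane family, was at 1911 and 1914 RPKM in neutrophils, against 3.45 and 2.73 in HSPC (9.84 ± 0.45).

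The 15 largest falls were smaller than the 15 largest rises. Mt2 and Mt1 encode metallothioneins, which bind zinc and copper. Mt2 was at 4.26 and 4.16 RPKM in neutrophils, against 107 and 109.7 in HSPC (−3.76), and Mt1 at 7.76 and 8.01 RPKM, against 122 and 128 (−3.13). Car1, the erythroid carbonic anhydrase, was at 25.03 and 25.5 RPKM in neutrophils, against 499 and 527 in HSPC (−3.54 ± 0.10). Cd34, the sialomucin used to mark progenitors, was at 0.459 and 0.457 RPKM in neutrophils, against 15.3 and 15.7 in HSPC (−3.29 ± 0.19). The neutrophil mean of Cd34 was 2.95% of the HSPC mean, the lowest among these 15. Npm1, the nucleolar chaperone whose mutant form the wider study concerns, was at 19.0 and 19.9 RPKM in neutrophils, against 289 and 284 in HSPC (−3.07 ± 0.06, adjusted p = 5.84e-10). The other 10 were Bzw2, the cytokine Mif, the spermidine synthase Srm, the nucleolar GTPase Gnl3, Prelid2, the glycine cleavage protein Gcsh, the folate enzyme Mthfd1, Fam195a, the serine protease Prss50 and the nucleolar methyltransferase Fbl. Their neutrophil means lay between 3.98% and 6.94% of the HSPC means.

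In HSPC the 6 highest genes were Rps12, mt-Co1, Rplp1, Hist1h4d, Eef1a1 and Rpsa. Rps12, a small-subunit ribosomal protein, was at 578 and 598 RPKM in neutrophils, against 3419 and 3527 in HSPC. Eef1a1, the translation elongation factor that delivers aminoacyl-tRNA, was at 277 and 279 RPKM in neutrophils, against 1702 and 1799 in HSPC. Rps12, Rplp1, Eef1a1 and Rpsa fell, at 14.3% to 16.9% of their HSPC level. The mitochondrial cytochrome oxidase subunit mt-Co1 (1336 and 1326 RPKM, against 2812 and 2997 in HSPC) and the histone gene Hist1h4d (864 and 804 RPKM, against 2143 and 2387) were lower in RPKM but passed no call. The 3 abundant genes closest to the median gene were Elane, Calm3 and Psma2. Psma2, a proteasome core subunit, was at 69.7 and 69.0 RPKM in neutrophils, against 127 and 126 in HSPC.

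The markers of both labelled cell types were examined. All 12 neutrophil markers rose, with a median change of 10.76, and their summed level was 99315 and 99034 RPKM in neutrophils, against 78.5 and 59.9 in HSPC. Of the 12, 3 reached 1 RPKM in neutrophils only. Of 8 HSPC markers 7 were tested, 4 fell (Kit, Cd34, Flt3 and Myb) and 1 rose. Among the 7, 3 reached 1 RPKM in HSPC only. Kit, the stem cell factor receptor, was at 1.86 and 1.93 RPKM in neutrophils, against 14.9 and 14.5 in HSPC (−1.89 ± 0.07). Myb, a transcription factor of dividing progenitors, was at 6.73 and 6.77 RPKM in neutrophils, against 59.8 and 58.4 in HSPC (−2.26 ± 0.09). The one that rose was Ly6a (Sca-1), at 3.02 and 3.29 RPKM in neutrophils, against 1.88 and 1.95 in HSPC (1.37 ± 0.11), and the stem cell factor Meis1 stayed below 1 RPKM in all 4 libraries. On the scale as deposited and with the same summed RPKM 0 HSPC markers rose and 6 fell, the change of Ly6a being 0.60 and 0.23.

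Granule genes divided by class. Among 10 primary granule genes, which encode the proteases and peroxidase made first, none rose, 2 fell, beside 20.6% of all tested genes that fell, and the median change was −0.35, against 0 for all tested genes. The falls numbered 5 on the scale as deposited, 8 with the same summed RPKM and 4 after quantile normalization. On those scalings 4212, 5085 and 2951 of all 9643 tested genes fell. Mpo, myeloperoxidase, was at 51.9 and 51.9 RPKM in neutrophils, against 285 and 297 in HSPC (−1.70 ± 0.27, adjusted p = 0.000312). Ctsg, cathepsin G, was at 50.5 and 55.8 RPKM in neutrophils, against 259 and 274 in HSPC (−1.54 ± 0.30, adjusted p = 0.001). Each of these enzymes was lower in both neutrophil libraries than in either HSPC library. Elane, neutrophil elastase, was at 228 and 227 RPKM in neutrophils, against 384 and 399 in HSPC, and moved with the median gene (−0.01 ± 0.37, adjusted p = 0.989). Its neighbour Prtn3, proteinase 3, was at 22.9 and 22.0 RPKM in neutrophils, against 59.5 and 62.6 in HSPC (−0.65 ± 0.30, adjusted p = 0.0692). The standard errors use a spread estimated for each gene over all 5 groups. Summed over the list, the level was 411 and 413 RPKM in neutrophils, against 1106 and 1156 in HSPC.

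Specific granule genes made up the class with the largest median change, 10.10. All 13 tested of 14 rose, 4 of them through neutrophil libraries only, and Ptx3 stayed near 0 in all 4 libraries. Ltf, the iron-binding lactoferrin, was at 2143 and 2139 RPKM in neutrophils, against 1.56 and 1.18 in HSPC (10.95 ± 0.49, adjusted p = 5.94e-08). Camp, the cathelicidin antimicrobial peptide, was at 5229.6 and 5442 RPKM in neutrophils, against 4.31 and 4.31 in HSPC (10.89 ± 0.52). Mmp8, neutrophil collagenase, was at 2304 and 2279.6 RPKM in neutrophils, against 2.04 and 1.90 in HSPC (10.64 ± 0.51). HSPC thus held each of these transcripts at a few RPKM. Lcn2, the siderophore-binding lipocalin, was at 778 and 782 RPKM in neutrophils, against 0.794 and 0.647 in HSPC (10.10 ± 0.43). Cd177, the surface partner of proteinase 3 in human cells, was at 1275 and 1247 RPKM in neutrophils, against 1.01 and 0.866 in HSPC (10.55 ± 0.40). The smallest rise in the class was that of Hp, haptoglobin, at 1207 and 1229 RPKM in neutrophils, against 26.7 and 25.5 in HSPC (6.29 ± 0.26).

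Genes of gelatinase granules and secretory vesicles followed. All 12 rose with a median of 7.20, although 10 of them reached 1 RPKM in neutrophils only. Mmp9, gelatinase B, was at 796 and 794 RPKM in neutrophils, against 0.526 and 0.419 in HSPC (10.46 ± 0.39). Itgam, the CD11b integrin chain stored in secretory vesicles, was at 89.9 and 90.3 RPKM in neutrophils, against 0.464 and 0.44 in HSPC (7.35 ± 0.12). Arg2, a mitochondrial arginase, was at 57.9 and 58.0 RPKM in neutrophils, against 0.255 and 0.256 in HSPC (7.05 ± 0.10). Prok2, a secreted chemoattractant-like protein, was at 2.01 and 1.64 RPKM in neutrophils and is listed at 0 in both HSPC libraries.

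The 15 alarmin, stefin and other cytosolic genes rose without exception, with a median of 6.55, and 6 of them reached 1 RPKM in neutrophils only. The stefins, inhibitors of cysteine proteases, form a cluster on chromosome 16, and their near-identical copies make the split of reads between them uncertain. Stfa2l1 was at 244 and 232 RPKM in neutrophils, against 0.132 and 0.126 in HSPC, while Stfa1 (25.8 and 27.8 RPKM in neutrophils), Stfa2 (10.51 and 11.4) and BC100530 (3.49 and 3.47) are listed at 0 in both HSPC libraries. Anxa1, an annexin of anti-inflammatory signalling, was at 608 and 620 RPKM in neutrophils, against 9.09 and 9.27 in HSPC (6.77 ± 0.27).

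**Figure D2:**
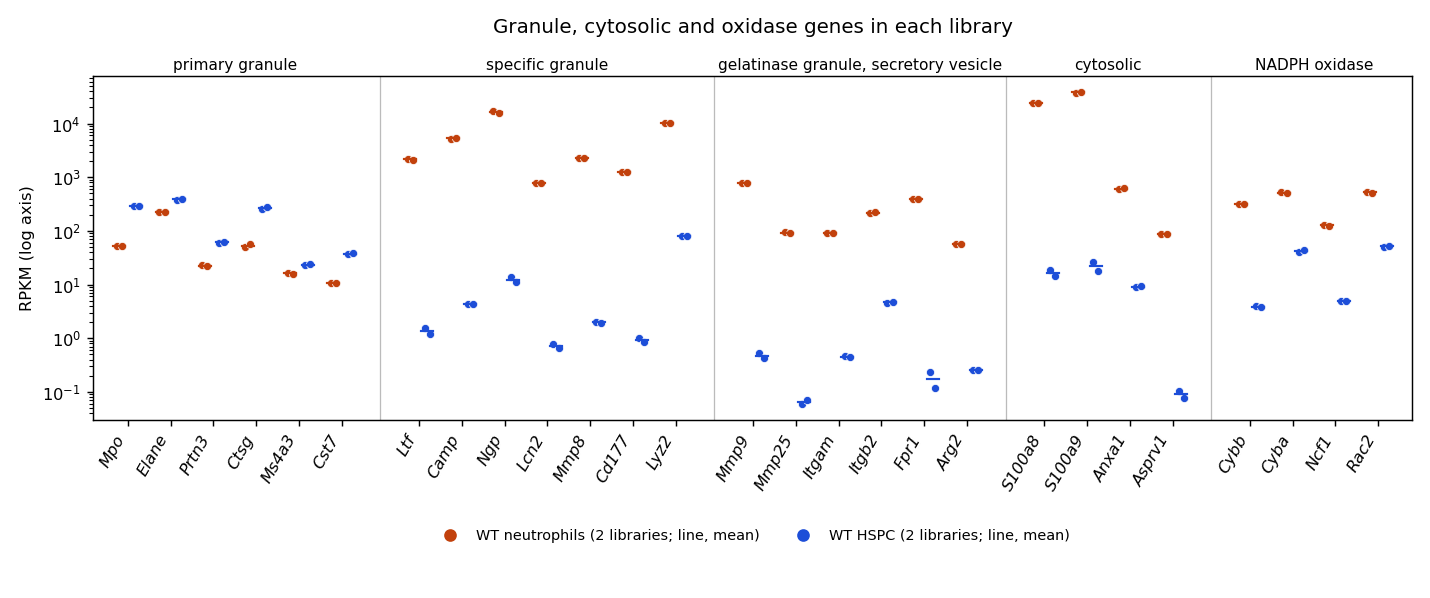
RPKM (log axis) of granule, cytosolic and NADPH oxidase genes, with neutrophil libraries left of HSPC libraries for each gene; points are libraries and lines are means of 2. The primary granule genes shown lie lower in RPKM in neutrophils, and Mpo fell (51.9 RPKM in each neutrophil library, against 285 and 297 in HSPC). The median of the whole primary granule list was 44.5% of HSPC, against 52.9% for the median tested gene, and 8 of its 10 members passed no call. Genes of the later granules are higher in neutrophils by far more than the distance between replicates.

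Camp, Ngp and Ltf all lie on mouse chromosome 9 (GRCm38): Camp at chr9:109847379-109849617 on the minus strand, Ngp at chr9:110419747-110423012 and Ltf at chr9:111019271-111042767 on the plus strand. S100a8 (chr3:90668978-90670035, plus strand) and S100a9 (chr3:90692632-90695721, minus strand) lie close together on chromosome 3. The promoters of Ngp, Ltf and S100a8 are shown because these genes rose together. The sequences are RefSeq's, on GRCm38.p6, and run 5′ to 3′ on the gene's strand from 250 bases before to 50 after the annotated start. Capitals mark matches on either strand to TTGCNNAA (a C/EBP motif), GAGGAA (a PU.1 core), CCAAT and TATAAA.
Ngp, chr9:110419558-110419857, plus strand: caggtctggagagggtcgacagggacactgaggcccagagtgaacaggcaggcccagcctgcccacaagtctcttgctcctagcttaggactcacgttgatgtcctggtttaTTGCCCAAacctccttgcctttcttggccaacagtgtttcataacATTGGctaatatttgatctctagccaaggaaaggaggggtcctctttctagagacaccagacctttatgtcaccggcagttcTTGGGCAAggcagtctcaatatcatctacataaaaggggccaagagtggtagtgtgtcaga
Ltf, chr9:111019042-111019341, plus strand: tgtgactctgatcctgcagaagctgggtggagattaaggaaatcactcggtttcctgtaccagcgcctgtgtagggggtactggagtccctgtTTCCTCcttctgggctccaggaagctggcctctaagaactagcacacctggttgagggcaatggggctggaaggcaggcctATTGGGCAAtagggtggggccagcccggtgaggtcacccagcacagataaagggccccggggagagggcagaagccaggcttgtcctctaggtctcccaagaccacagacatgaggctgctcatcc
S100a8, chr3:90668821-90669120, plus strand: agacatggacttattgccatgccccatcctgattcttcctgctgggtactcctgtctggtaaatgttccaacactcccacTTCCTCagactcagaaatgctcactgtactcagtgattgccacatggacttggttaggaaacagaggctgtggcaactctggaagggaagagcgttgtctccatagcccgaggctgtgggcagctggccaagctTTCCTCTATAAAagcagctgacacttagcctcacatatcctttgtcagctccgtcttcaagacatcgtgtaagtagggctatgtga
In Ngp matches to TTGCNNAA begin 138 and 11 bases before the start. In Ltf a match begins 75 bases before the start, where it overlaps a CCAAT match that begins 1 base earlier. S100a8 holds no TTGCNNAA in this window; it has GAGGAA matches 170 and 36 bases and a TATAAA 30 bases before the start. Of the 13 tested specific granule genes 11 had a promoter in the table, and 5 of these (45.5%) held TTGCNNAA, against 10.8% of all 27025 promoters. Over all genes that rose, however, the share was 10.1% of 2114, with 7.31% of 1504 among genes that fell. GAGGAA stood in 30.2% of promoters of genes that rose, in 26.2% of those that fell and in 28.3% of all promoters. Among the 7394 promoters of all tested genes TTGCNNAA stood in 8.49% and GAGGAA in 27.1%. Such matches are letters in a window and not measured binding.

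The NADPH oxidase, the enzyme complex that makes superoxide in phagocytes, rose in 8 of 9 subunits and regulators, with a median of 4.36. Cybb, its membrane catalytic subunit gp91phox, was at 312 and 319 RPKM in neutrophils, against 4.03 and 3.75 in HSPC (6.95 ± 0.21). Its partner Cyba was at 522 and 504 RPKM in neutrophils, against 40.9 and 43.9 in HSPC (4.36 ± 0.12). The cytosolic subunits Ncf1 and Ncf4 rose by 5.30 and 4.999 on the log2 scale. The GTPase Rap1a was the member without a call, at 17.7 and 17.5 RPKM in neutrophils, against 15.8 and 15.01 in HSPC (0.97 ± 0.05).

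Receptors that steer neutrophils were higher in neutrophils with 1 exception. Of 10 tested chemoattractant receptors among 12, 9 rose and 1 fell, with a median of 6.66, and 5 reached 1 RPKM in neutrophils only. Fpr1, the formyl peptide receptor, was at 391 and 396 RPKM in neutrophils, against 0.232 and 0.118 in HSPC (9.97 ± 0.32). Cxcr2, the receptor for CXCL chemokines that draws neutrophils into blood, was at 244 and 242 RPKM in neutrophils, against 1.23 and 1.10 in HSPC (7.97 ± 0.19). Cxcr4, which retains cells in the marrow, was also higher, at 190.3 and 189 RPKM in neutrophils, against 38.4 and 41.3 in HSPC (3.02 ± 0.15). Ccr2, a monocyte chemokine receptor, fell, at 1.6 and 1.76 RPKM in neutrophils, against 7.08 and 7.05 in HSPC (−1.02 ± 0.08), a call lost without neutrophil replicate 1 (−0.97).

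Adhesion genes were split, with 6 of 12 rising, 1 falling and a median of 1.63, beside 28.6% and 20.6% of all tested genes. With the same summed RPKM 4 fell, beside 5085 of all 9643 tested genes. Itgb2, the β2 integrin chain, was at 218 and 220.4 RPKM in neutrophils, against 4.61 and 4.67 in HSPC (6.20 ± 0.09). Itgb1, the β1 integrin chain used by progenitors to bind marrow matrix, fell, at 11.1 and 11.4 RPKM in neutrophils, against 40.8 and 38.8 in HSPC (−1.001 ± 0.05), while its partner Itga4 passed no call (−0.45 ± 0.06). The call of Itgb1 was lost without neutrophil replicate 1 (−0.98) and without HSPC replicate 1 (−0.97).

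Cytokine receptors changed in kind. Of 25 tested among 26, 18 rose and 4 fell, with a median of 2.28. Among the 25, 3 reached 1 RPKM in HSPC only and 1 in neutrophils only. Csf3r, the G-CSF receptor, was at 159.8 and 159.5 RPKM in neutrophils, against 3.05 and 3.05 in HSPC (6.27 ± 0.27). Csf2ra, the α chain of the GM-CSF receptor, rose by 4.41 and Il17ra by 3.15 on the log2 scale. Il1r2, a decoy receptor for interleukin 1, was at 46.8 and 46.7 RPKM in neutrophils, against 0.0404 and 0.0677 in HSPC (7.19 ± 0.13). The signalling receptor Il1r1 stayed below 1 RPKM in all 4 libraries. The 4 that fell were Kit, Flt3, the erythropoietin receptor Epor and the shared interleukin 6 chain Il6st. Flt3, a progenitor receptor kinase, was at 0.706 and 0.826 RPKM in neutrophils, against 5.35 and 5.22 in HSPC (−1.42 ± 0.12).

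Microbial sensing genes rose almost throughout: 26 of 27 tested among 30, with a median of 3.44, although 15 of them reached 1 RPKM in neutrophils only. Among Toll-like receptors, Tlr13, which recognises bacterial ribosomal RNA in mice, was the highest, at 98.8 and 102 RPKM in neutrophils, against 0.294 and 0.273 in HSPC (7.78 ± 0.12). Tlr2 and Tlr4, which sense bacterial lipoprotein and lipopolysaccharide, rose by 4.82 and 4.41, whereas Tlr1 and Tlr9 stayed below 1 RPKM in all 4 libraries. Pglyrp1, a peptidoglycan recognition protein held in granules, was at 1398 and 1388 RPKM in neutrophils, against 10.3 and 9.21 in HSPC (7.87 ± 0.30). The inflammasome sensors Nlrp3 and Nlrp12 rose by 4.56 and 6.00, and Gsdmd, the pore protein cleaved by inflammatory caspases, by 2.59. Pycard, the adaptor that joins them, was without a call, at 12.2 and 11.6 RPKM in neutrophils, against 16.2 and 17.8 in HSPC (0.28 ± 0.11).

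All 11 tested of 12 Fc and inhibitory receptors rose, with a median of 5.52, 6 of them through neutrophil libraries only. Fcgr4, an activating receptor for IgG, was at 99.3 and 98.5 RPKM in neutrophils, against 0.347 and 0.47 in HSPC (7.55 ± 0.14), and the inhibitory Pirb was at 37.5 and 38.1 RPKM, against 0.338 and 0.305 (6.32 ± 0.08). Of 10 tested genes of lipid mediator synthesis among 12, 9 rose, with a median of 2.60, and 3 reached 1 RPKM in neutrophils only. Alox5, which begins leukotriene synthesis, rose by 4.95 and its activating protein Alox5ap by 4.46. Lta4h, which makes leukotriene B4, was already abundant in HSPC, at 248 and 255 RPKM in neutrophils, against 97.3 and 99.8 in HSPC (2.13 ± 0.17). Ltc4s, the synthase for the cysteinyl branch, stayed at or below 0.257 RPKM in all 4 libraries.

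Cytokine and chemokine genes were higher in neutrophils as well. Of 16 tested among 20, 14 rose, with a median of 3.17, 9 through neutrophil libraries only. Il1b, interleukin 1β, was at 81.1 and 83.6 RPKM in neutrophils, against 0.300 and 0.272 in HSPC (7.497 ± 0.10), and its antagonist Il1rn at 29.5 and 30.4 RPKM, against 0.0583 and 0.0418 (6.57 ± 0.06). Ccl6, a CC chemokine of mouse myeloid cells, was the highest of the list, at 307 and 302 RPKM in neutrophils, against 3.49 and 3.85 in HSPC (6.97 ± 0.27). Il6 and Il10 stayed below 0.21 RPKM in all 4 libraries. Most genes of the combined immediate early and heat shock list moved in the same direction. Of 16 tested among 21, 12 rose and 1 fell, with a median of 3.51, beside 28.6% and 20.6% of all tested genes. Among the 16, 2 reached 1 RPKM in neutrophils only and 3 in HSPC only. Zfp36, which destabilises cytokine mRNAs, was at 177 and 168 RPKM in neutrophils, against 5.93 and 6.12 in HSPC (5.51 ± 0.16), and Fos was at 30.4 and 29.1 RPKM, against 1.83 and 1.82 (4.48 ± 0.22). Heat shock members of that list went the other way or stayed low: Hsph1 fell by 1.47 on the log2 scale, and Hspa1a and Hspa1b stayed below 0.56 RPKM in all 4 libraries. Handling during isolation differed between the groups by the kit used, and its part in these values was not tested.

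Interferon response genes rose in 24 of 27 tested among 30, with a median of 2.73, and 4 of the 27 reached 1 RPKM in neutrophils only. Ifit3 was at 26.0 and 26.1 RPKM in neutrophils, against 0.218 and 0.189 in HSPC (6.02 ± 0.08), and the oligoadenylate synthase Oas3 at 35.8 and 35.4 RPKM, against 1.98 and 1.95 (4.65 ± 0.10). Irf7, which drives the response, rose by 2.49. Bst2 (−0.93 ± 0.12) and Ifi47 (−0.45 ± 0.06) were the members below the median gene. The actin and motility list rose in 30 of 31 tested among 32, with a median of 2.73. Actb, cytoplasmic β-actin and often a normalizer, was at 2422 and 2337 RPKM in neutrophils, against 481 and 494 in HSPC (3.06 ± 0.08). Its monomer-binding partner Tmsb4x was at 1615 and 1632 RPKM in neutrophils, against 133 and 131 in HSPC (4.40 ± 0.19). Tmsb10, a paralogue of Tmsb4x, was the member without a call, at 15.9 and 14.96 RPKM in neutrophils, against 28.7 and 29.5 in HSPC (−0.12 ± 0.16). The Src-family kinase Fgr, which signals from integrins, rose by 7.42.

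Among myeloid transcription factors 14 of 19 tested among 20 rose and 1 fell, with a median of 3.35. Of the 19, 4 reached 1 RPKM in neutrophils only and 1 in HSPC only. Cebpe, the factor of specific granule genes, was at 96.1 and 95.1 RPKM in neutrophils, against 3.19 and 3.29 in HSPC (5.46 ± 0.29, adjusted p = 1.63e-07). Spi1, which encodes PU.1, was at 90.9 and 88.3 RPKM in neutrophils, against 8.17 and 9.12 in HSPC (4.08 ± 0.20). Cebpb was at 14.1 and 11.9 RPKM in neutrophils, against 1.74 and 2.13 in HSPC (3.25 ± 0.24). Cebpa, the factor of granulocyte commitment, stayed level, at 18.1 and 17.3 RPKM in neutrophils, against 16.3 and 17.7 in HSPC, with overlapping libraries and no call (0.84 ± 0.19). The highest member was Mxd1, a repressor that competes with MYC for MAX, at 169.8 and 169 RPKM in neutrophils, against 3.46 and 3.34 in HSPC (6.22 ± 0.07). Myc itself fell, at 0.303 and 0.299 RPKM in neutrophils, against 6.55 and 6.62 in HSPC (−2.37 ± 0.07). Irf8, a factor of the monocyte branch, fell too, at 1.48 and 1.52 RPKM in neutrophils, against 12.7 and 12.8 in HSPC (−1.95 ± 0.12).

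Of 15 tested stem and progenitor factors among 20, 8 fell and 4 rose, with a median of −1.25, beside 20.6% and 28.6% of all tested genes. Among the 15, 3 reached 1 RPKM in HSPC only and 1 in neutrophils only. The falls were Myb, Myc, Sox4, Lmo2 and the erythroid-megakaryocytic factors Gata1, Tal1, Zfpm1 and Klf1. Gata1 was at 7.83 and 7.64 RPKM in neutrophils, against 61.0 and 64.0 in HSPC (−2.16 ± 0.05). Nfe2, Fli1, Hhex and Erg rose (on the scale as deposited 3 did, without Erg at 0.95, and with the same summed RPKM 1), and Nfe2, known as a megakaryocytic and erythroid factor, was at 31.7 and 31.0 RPKM in neutrophils, against 9.96 and 10.4 in HSPC (2.36 ± 0.09). Meis1, Hoxa9, Hlf and Mecom, which maintain stem cells, did not meet the 1 RPKM rule in either cell type, the highest value being 1.018 RPKM for Hoxa9 in an HSPC library. Stem cell surface and niche genes fell in 8 of 15 tested among 16 and rose in 3, with a median of −1.06. Of these 15, 6 reached 1 RPKM in HSPC only, which had to be higher there to be tested, and 1 in neutrophils only. Adgrg1 (GPR56) was at 3.55 and 3.51 RPKM in neutrophils, against 34.5 and 36.3 in HSPC (−2.38 ± 0.12). The tetraspanin Cd9 rose, at 119.6 and 120.5 RPKM in neutrophils, against 22.3 and 21.1 in HSPC (3.22 ± 0.11).

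DNA replication genes were lower in neutrophils. Of 35 DNA replication genes 29 fell and 0 rose, with a median of −1.48, and 3 reached 1 RPKM in HSPC only. Their neutrophil means were 14.0% to 35.8% of the HSPC means (median 18.1%, against 52.9% over all tested genes). Mcm6, a subunit of the replicative helicase, was at 13.1 and 12.98 RPKM in neutrophils, against 87.0 and 88.1 in HSPC (−1.92 ± 0.06). Pcna, the polymerase clamp, was at 22.5 and 22.4 RPKM in neutrophils, against 107 and 109 in HSPC (−1.47 ± 0.06). Of 28 G2 and mitosis genes 7 fell and 0 rose, beside 20.6% and 28.6% of all tested genes, with a median of −0.86 and a median neutrophil level of 30.4% of HSPC. Mki67, the proliferation antigen, was at 41.5 and 43.7 RPKM in neutrophils, against 128 and 116 in HSPC (−0.73 ± 0.12), and Ccnb1, the mitotic cyclin, at 5.32 and 5.38 RPKM, against 20.9 and 21.6 (−1.12 ± 0.05). Mitotic transcripts were thus measurable in the neutrophil libraries at several RPKM, and what share of the cells held them was not tested. On the scale as deposited 27 of the 28 mitosis genes fell, and with median-of-ratios scaling 2 did. Over all 9643 tested genes 4212 and 2138 fell on these scalings.

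The promoters of Mcm3, a replicative helicase subunit that fell by 1.80, and of Bub1b, a spindle checkpoint kinase that fell by 1.03 (−0.99 and no call without neutrophil replicate 1), are shown as 1 gene from each list. Capitals mark TTTGGCGC and TTTCCCGC (E2F) and CCAAT in Mcm3, and TTTGAA (the cell cycle homology region) and CCAAT in Bub1b, on either strand. Mcm3 also holds a TTGCNNAA match that begins 162 bases before the start and a GAGGAA match that begins 4 bases before it, left in lower case.
Mcm3, chr1:20820263-20820562, minus strand: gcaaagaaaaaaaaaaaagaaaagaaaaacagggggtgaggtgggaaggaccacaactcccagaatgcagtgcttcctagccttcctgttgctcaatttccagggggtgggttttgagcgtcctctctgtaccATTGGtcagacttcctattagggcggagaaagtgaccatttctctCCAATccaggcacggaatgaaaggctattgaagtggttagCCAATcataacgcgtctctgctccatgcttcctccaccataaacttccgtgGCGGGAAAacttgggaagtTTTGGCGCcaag
Bub1b, chr2:118597961-118598260, plus strand: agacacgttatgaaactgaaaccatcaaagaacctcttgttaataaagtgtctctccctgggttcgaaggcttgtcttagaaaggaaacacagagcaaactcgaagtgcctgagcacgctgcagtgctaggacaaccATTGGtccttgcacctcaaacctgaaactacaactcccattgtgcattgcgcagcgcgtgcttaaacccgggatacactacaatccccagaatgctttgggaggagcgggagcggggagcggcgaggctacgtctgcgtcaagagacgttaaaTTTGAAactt
TTTCCCGC was found in 6 of 29 promoters of the replication list (20.7%) and TTTGGCGC in 5 (17.2%), against 1.11% and 0.537% of all promoters. TTTGAA was found in 19 of 24 promoters of the mitosis list (79.2%), against 18.1% of all promoters, and CCAAT in 20 of them (83.3%), against 37.9%. Over all genes that fell, TTTCCCGC stood in 2.93% and TTTGAA in 12.8%, against 1.09% and 10.2% of genes that rose. Among promoters of all tested genes the shares were 2.15% for TTTCCCGC, 1.08% for TTTGGCGC, 12.1% for TTTGAA and 39.4% for CCAAT.

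Of 17 tested regulators of the entry into the cycle among 20, 4 rose and 4 fell, near the 28.6% and 20.6% of all tested genes. These counts were 3 and 8 on the scale as deposited, 3 and 10 with the same summed RPKM, and 4 and 7 after quantile normalization. On those scalings 4212, 5085 and 2951 of all 9643 tested genes fell. Cdk4 and Cdk6, the kinases of the restriction point, fell: Cdk4 was at 2.75 and 2.92 RPKM in neutrophils, against 31.5 and 32.6 in HSPC (−2.51 ± 0.06), and Cdk6 at 5.41 and 5.58 RPKM, against 46.8 and 44.2 (−2.16 ± 0.10). Their inhibitor Cdkn2d (p19) rose, at 82.7 and 82.1 RPKM in neutrophils, against 10.52 and 9.53 in HSPC (3.76 ± 0.10), as did Cdkn1b (p27), at 14.96 and 14.9 RPKM, against 4.23 and 4.25 (2.48 ± 0.05). Ccnd3 and E2f2 were the other two that rose (1.71 and 2.57); the call of Ccnd3 was lost on the scale as deposited (0.93). E2f2 was at 36.1 and 36.2 RPKM in neutrophils, against 10.49 and 9.76 in HSPC. Cdkn1a, Cdkn1c and Cdkn2a stayed below 0.28 RPKM in all 4 libraries.

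Replication-dependent histone genes, whose messages lack a poly(A) tail and are kept by the ribosomal RNA depletion used here, fell in 13 of 58 tested among 62, with a median of −0.71, beside 20.6% of all tested genes that fell; on the scale as deposited 47 fell, and with median-of-ratios scaling 6. Their summed level was still 9410 and 9326 RPKM in neutrophils, against 25775 and 26759 in HSPC. Hist1h1a was at 254.5 and 256 RPKM in neutrophils, against 1455 and 1522.5 in HSPC (−1.76 ± 0.06), while Hist1h1c was level, at 256 and 257 RPKM in neutrophils, against 252 and 250.5 in HSPC (0.81 ± 0.05, no call). These genes share near-identical sequences, so that reads may be divided among them in ways the tables do not show.

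Genes for making ribosomes were lower in neutrophils. Of 30 ribosome biogenesis genes 28 fell and 0 rose, with a median of −2.42 and a median neutrophil level of 8.34% of HSPC. Among the 30, 4 reached 1 RPKM in HSPC only. Besides Npm1, Gnl3 and Fbl, the nucleolar helicase Ddx21 was at 7.16 and 7.21 RPKM in neutrophils, against 95.3 and 91.6 in HSPC (−2.83 ± 0.06), and Ncl, nucleolin, at 4.14 and 4.16 RPKM, against 52.9 and 37.1 (−2.49 ± 0.15). Polr1b, the second-largest subunit of RNA polymerase I, was at 1.01 and 1.05 RPKM in neutrophils, against 15.98 and 16.3 in HSPC (−2.67 ± 0.07). The largest subunit Polr1a did not follow it, at 28.8 and 28.03 RPKM in neutrophils, against 30.3 and 30.8 in HSPC (0.68 ± 0.05, no call). Of 79 tested cytosolic ribosomal protein genes among 81, 73 fell and 0 rose, with a median of −1.61. The 79 lay at 11.5% to 50.9% of the HSPC level, and the list took 2.4% and 2.45% of the summed RPKM in neutrophils, against 17.3% and 17.7% in HSPC. Rps27, of the small subunit, passed no call, at 45.4 and 45.7 RPKM in neutrophils, against 108 and 115 in HSPC (−0.51 ± 0.07).

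All 13 genes of the mitochondrial genome lay below the median gene, and 6 fell, with a median of −0.92, beside 20.6% of all tested genes. mt-Nd1, a complex I subunit, was at 229 and 232 RPKM in neutrophils, against 1111 and 1152 in HSPC (−1.51 ± 0.09), and mt-Cytb, of complex III, at 192 and 198 RPKM, against 667 and 682 (−1.01 ± 0.08). The call of mt-Cytb was lost without neutrophil replicate 1 (−0.997) and without HSPC replicate 2 (−0.99). Of 76 nuclear genes of oxidative phosphorylation 20 fell and 0 rose, with a median of −0.68, beside 20.6% of all tested genes that fell. Of 15 genes of the tricarboxylic acid cycle 6 fell and 0 rose, with a median of −0.93, beside the same 20.6%. On the scale as deposited 13 mitochondrial genome, 56 nuclear oxidative phosphorylation and 14 cycle genes fell, beside 4212 of all 9643 tested genes. Idh3a, of the NAD-dependent isocitrate dehydrogenase, was at 5.18 and 5.62 RPKM in neutrophils, against 62.8 and 61.4 in HSPC (−2.63 ± 0.06).

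In contrast, 19 of 24 glycolysis and glycogen genes rose and 2 fell, with a median of 2.30, and 5 reached 1 RPKM in neutrophils only. With the same summed RPKM 12 rose and 4 fell. Pygl, the glycogen phosphorylase that releases stored glucose, was at 247 and 249 RPKM in neutrophils, against 7.38 and 7.59 in HSPC (5.74 ± 0.12). Pkm, pyruvate kinase, was at 414 and 407 RPKM in neutrophils, against 61.3 and 63.7 in HSPC (3.48 ± 0.22), and Slc2a3, a glucose transporter, at 90.3 and 92.0 RPKM, against 7.32 and 7.29 (4.33 ± 0.06). Slc16a3, which exports lactate, rose by 5.46. The phosphofructokinase isoforms Pfkm and Pfkl were the members that fell: Pfkm was at 2.21 and 2.47 RPKM in neutrophils, against 20.7 and 20.8 in HSPC (−2.13 ± 0.09), and Pfkl at 4.59 and 4.498 RPKM, against 19.3 and 19.1 (−1.19 ± 0.08). Gapdh, another common normalizer, rose by 1.28 (94.8 and 90.2 RPKM in neutrophils, against 63.6 and 67.0 in HSPC), and Ldha passed no call (0.34 ± 0.07). The call of Gapdh was lost on the scale as deposited (0.50).

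**Figure D3:**
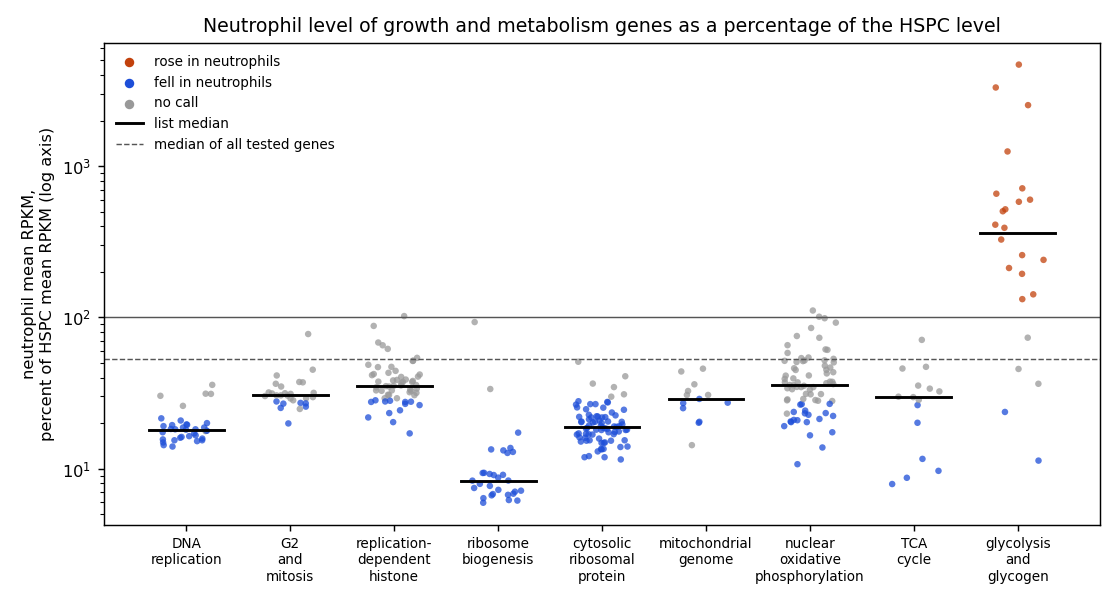
Neutrophil mean RPKM as a percentage of the HSPC mean (vertical, log axis) for each tested gene of 9 lists; black bars are list medians, the solid line 100% and the dashed line the median of all tested genes (52.9%). Ribosome biogenesis has a median of 8.34%, DNA replication 18.1% and glycolysis and glycogen 359%.

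Genes of the endoplasmic reticulum and secretory pathway lay below the median gene in all 20 tested, with a median of −0.72. Of these genes 6 fell, beside 20.6% of all tested genes. On the scale as deposited 18 fell, beside 4212 of all 9643 tested genes. Calr, the luminal chaperone calreticulin, was at 49.7 and 51.5 RPKM in neutrophils, against 264 and 258 in HSPC (−1.58 ± 0.17). Survival genes were mixed: of 21 tested BCL2 family and caspase genes among 23, 12 rose and 2 fell, with a median of 1.31. Over all tested genes 28.6% rose and 20.6% fell. On the scale as deposited 6 of the 21 rose. Mcl1, the short-lived survival protein on which neutrophils depend, was at 170 and 178 RPKM in neutrophils, against 41.5 and 41.3 in HSPC (2.84 ± 0.06). Bcl2 fell, at 0.631 and 0.668 RPKM in neutrophils, against 5.03 and 4.74 in HSPC (−1.45 ± 0.15), and Bax, a death effector, at 6.53 and 6.79 RPKM, against 28.3 and 26.6 (−1.19 ± 0.08). Copies of Bcl2a1 share sequence, and their split is uncertain.

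Of 19 nuclear architecture genes 6 rose and 4 fell, near the 28.6% and 20.6% of all tested genes. As deposited, 6 rose and 8 fell, and with the same summed RPKM 4 rose and 11 fell. Lbr, the lamin B receptor needed for lobed nuclei, was at 86.4 and 87.4 RPKM in neutrophils, against 39.6 and 39.8 in HSPC (1.90 ± 0.06). Lmna, which encodes the stiff A-type lamins, fell, at 2.12 and 2.04 RPKM in neutrophils, against 9.45 and 9.77 in HSPC (−1.19 ± 0.08), while Lmnb1 passed no call (−0.13 ± 0.09). Padi4, the enzyme that citrullinates histones in extracellular trap formation, was at 72.2 and 71.0 RPKM in neutrophils, against 0.722 and 0.674 in HSPC (6.69 ± 0.07). Of 12 tested DNA methylation and Polycomb genes among 15, 2 rose and 3 fell, beside 28.6% and 20.6% of all tested genes. These counts were 0 and 6 on the scale as deposited, and 0 and 7 with the same summed RPKM. Ezh1 rose (1.73 ± 0.05), at 3.25 and 3.11 RPKM in neutrophils, against 1.38 and 1.42 in HSPC, and its paralogue Ezh2 passed no call (−0.61 ± 0.09). The call of Ezh1 was lost on the scale as deposited (0.95). Dnmt1, the maintenance methyltransferase, fell, at 8.28 and 8.09 RPKM in neutrophils, against 35.7 and 35.9 in HSPC (−1.29 ± 0.09).

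**Figure D4:**
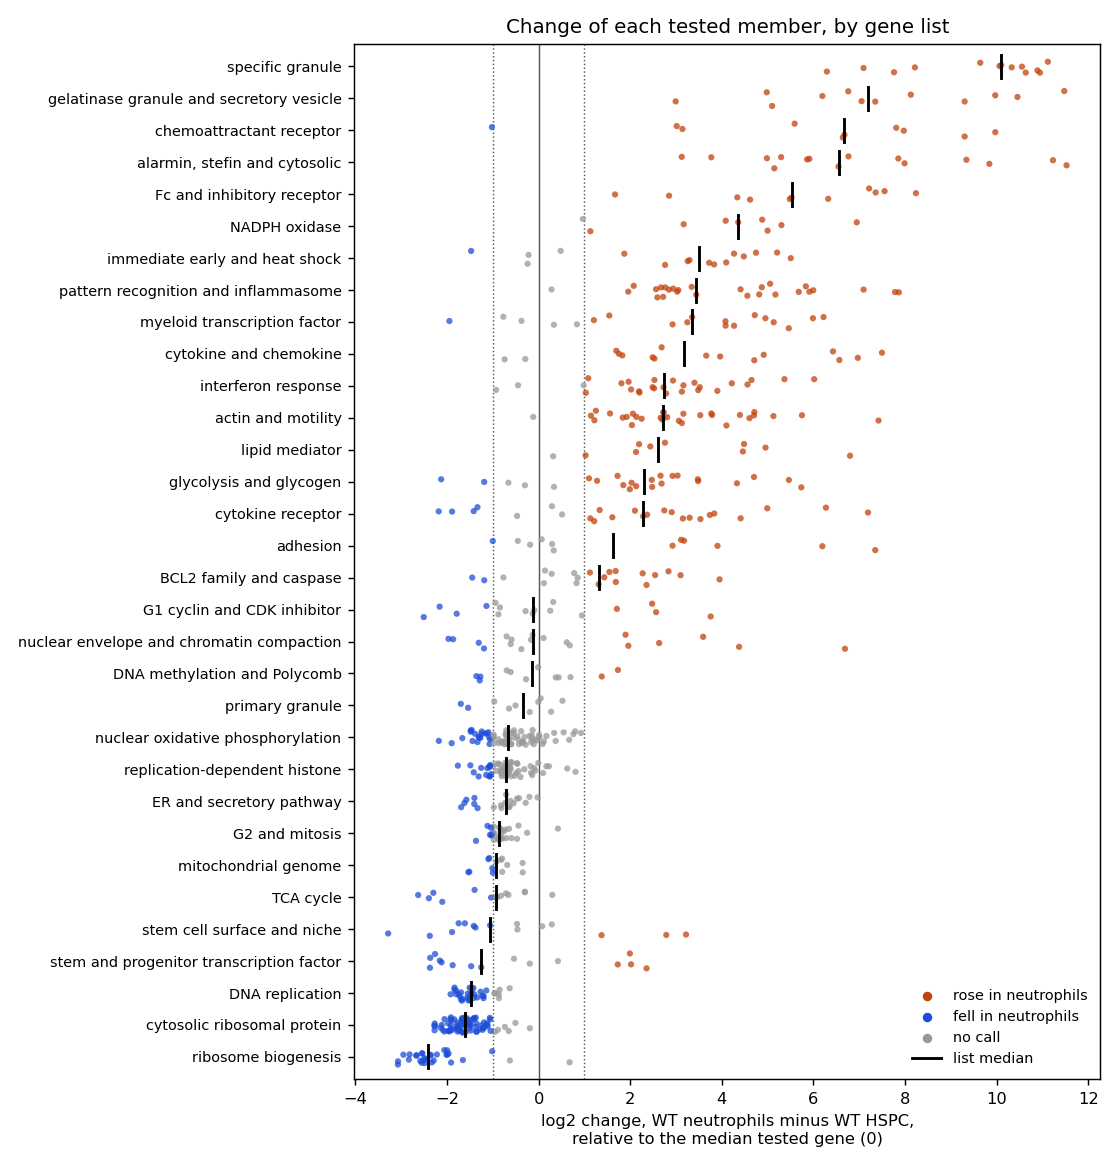
Relative log2 change of each tested gene in 32 lists, ordered by list median from specific granule (10.10) to ribosome biogenesis (−2.42); 0 is the median tested gene, dotted lines mark 2-fold and colours mark calls. Primary granule genes stand apart from the later granule classes, with a median of −0.35.

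Markers of other marrow cells were measured in the same libraries. Basophil genes were high in both: Mcpt8, a basophil protease, was at 138 and 139 RPKM in neutrophils, against 142 and 148 in HSPC, and Prss34 at 305 and 293 RPKM, against 261 and 273. The eosinophil granule protein Prg2 was at 125 and 122 RPKM in neutrophils, against 111 and 105 in HSPC. None of these 3 passed a call. Of 13 tested eosinophil, basophil and mast cell markers among 15, 5 rose and 0 fell, beside 28.6% and 20.6% of all tested genes. All 13 lay above the median gene, with a median of 0.94. The list's sum was 746 and 733 RPKM in neutrophils, against 611 and 627 in HSPC, with 0 members at 0 in either group. Ear2, an eosinophil-associated ribonuclease that has near-identical relatives, was at 82.4 and 82.1 RPKM in neutrophils, against 8.29 and 8.20 in HSPC (4.02 ± 0.41).

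Most erythroid markers were lower in neutrophils. Of 18 tested among 20, 11 fell and 3 rose, beside 20.6% and 28.6% of all tested genes. Their median was −1.19, and the list's sum was 696 and 681 RPKM in neutrophils, against 2351 and 2434 in HSPC. Klf1, the erythroid master factor, was at 15.8 and 15.7 RPKM in neutrophils, against 139 and 148.5 in HSPC (−2.37 ± 0.06). Globins differed from them: the α-globin gene Hba-a1 was at 171 and 167.5 RPKM in neutrophils, against 175 and 189 in HSPC (0.67 ± 0.28, no call), and Hbb-bs at 189 and 177 RPKM, against 105 and 112 (1.53 ± 0.45, rose, adjusted p = 0.0109 from limma). Without HSPC replicate 1 the adjusted p of Hbb-bs was 0.0501 and the call was lost. On the scale as deposited and with the same summed RPKM 0 erythroid markers rose and 12 fell, and Hbb-bs passed no call (0.75 and 0.32). Globin copies share reads, and both groups had been treated to lyse red cells.

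Monocyte markers were divided, with 5 of 12 tested among 18 rising and 5 falling. Beside the counts of this and the following lists stand the shares over all tested genes, of which 28.6% rose and 20.6% fell. The monocyte markers summed to 296 and 291 RPKM in neutrophils, against 166 and 166 in HSPC. F13a1, a monocyte product, was at 3.56 and 3.29 RPKM in neutrophils, against 40.6 and 40.5 in HSPC (−2.61 ± 0.15), whereas Ly6c2, shared by monocytes and neutrophils, was at 154 and 149 RPKM, against 37.7 and 39.7 (2.73 ± 0.31). Of 14 platelet markers 2 rose and 1 fell, with sums of 264 and 269 RPKM in neutrophils, against 366 and 379 in HSPC. Among them 1 rose and 6 fell on the scale as deposited, and with the same summed RPKM 0 rose and 11 fell. Over all 9643 tested genes 4212 and 5085 fell on these scalings. Of 10 tested dendritic and MHC class II markers among 14, 4 rose (1 on the scale as deposited) and 2 fell, with sums of 38.7 and 41.3 RPKM in neutrophils, against 56.3 and 55.0 in HSPC. Lymphoid markers were low throughout, with sums of 18.2 and 18.6 RPKM in neutrophils, against 8.93 and 9.47 in HSPC, over 12 B cell markers, and of 15.7 and 15.7 RPKM, against 3.15 and 3.21, over 15 T and NK cell markers. Of these, 4 and 3 were tested and 3 of each rose (1 B cell marker with the same summed RPKM), among them Cd79a at 8.38 and 8.48 RPKM in neutrophils, against 2.95 and 2.87 in HSPC (2.17 ± 0.30). The 16 stromal and endothelial markers summed to 16.9 and 16.1 RPKM in neutrophils, against 15.7 and 16.2 in HSPC, and 1 of 7 tested rose. The medians of the eosinophil and basophil, platelet, dendritic and stromal lists changed sign between scalings. The part of such cells in the changes above was not tested.

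**Figure D5:**
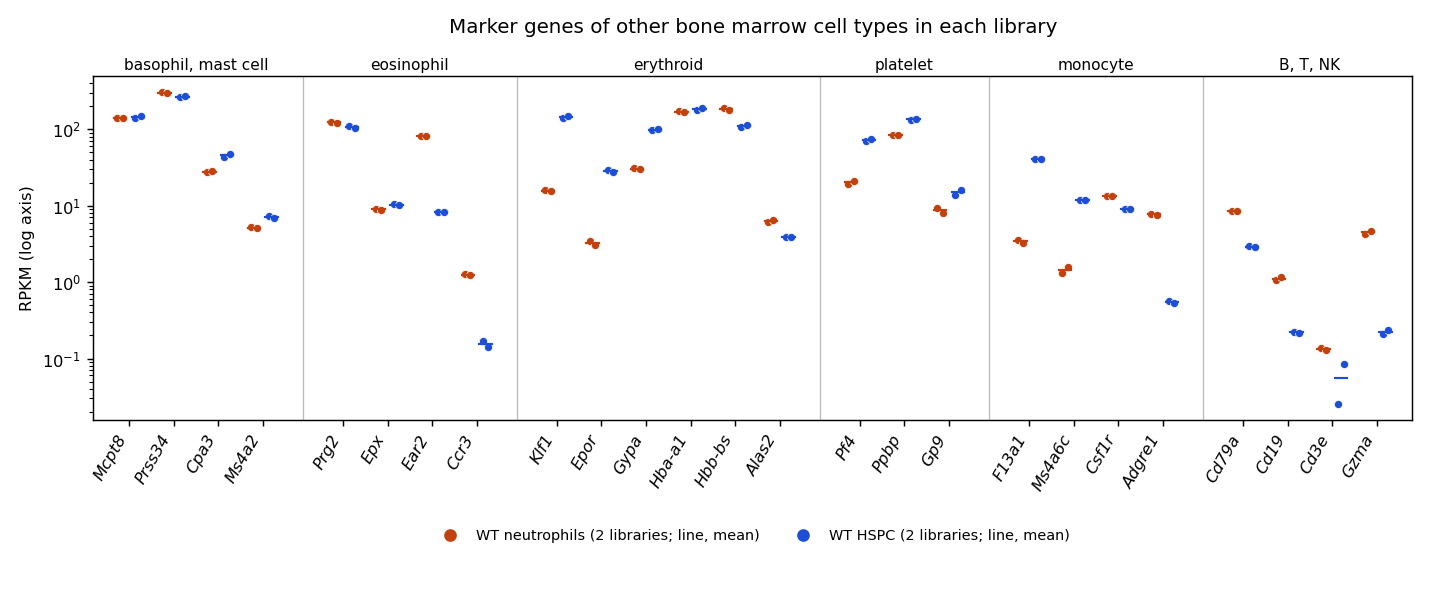
RPKM (log axis) of marker genes of other marrow cell types, with neutrophil libraries left of HSPC libraries; points are libraries and lines are means of 2. The basophil genes Mcpt8 and Prss34 and the eosinophil gene Prg2 lie at like RPKM in both groups, while the eosinophil gene Ear2 lies higher in neutrophils. The erythroid genes Klf1 and Epor and the monocyte genes F13a1 and Ms4a6c lie lower in neutrophils. The globin gene Hbb-bs and the monocyte gene Csf1r (13.4 and 13.4 RPKM in neutrophils, against 8.99 and 8.96 in HSPC) lie higher there.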

How the data were processed

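RNA of wild-type neutrophils and HSPC was sequenced from ribosomal RNA-depleted, directional libraries, per the labels' protocols. The authors deposited 1 table of RPKM per library, without counts. STAR 2.4.0, HTSeq, DiffBind and the build mm10 are named in the submitters' processing notes; no source used here says whether counting used strand. The value of 1 read was recovered from the steps between low values, and whole reads (within 0.02 reads) were found for 9461 of 9581 tested genes above 0 in all 10 libraries.

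Genes with at least 1 RPKM in 2 of the 4 wild-type libraries were tested on log2(RPKM + 0.5) with limma 3.58.1 (R 4.3.3), fitted over all 10 libraries with 5 groups, a variance trend and no block, and Benjamini-Hochberg adjusted over 9643 genes. The median change of all tested genes was subtracted. A call needed an adjusted p below 0.05 and 2-fold. Replicates are labelled biological, and their origin in separate animals is not stated, so p-values measure the spread between these libraries. On average over genes, replicates of each wild-type group differed by more than counting noise (mean chi-square per gene 2.67 in neutrophils and 6.29 in HSPC). The medians per gene were lower, at 0.708 in neutrophils and 1.38 in HSPC. Replicate numbers did not pair libraries across groups (correlations of replicate differences from −0.105 to 0.115).

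The text names the 15 largest rises and falls with at least 5 RPKM in both libraries of the higher group (predicted, small RNA and receptor segment genes left out), the 12 highest genes in neutrophils, the 6 highest in HSPC, the 3 with a mean of at least 50 RPKM in both groups closest to the median gene, and members of 42 gene lists. The members and lists were chosen with earlier results of these data known. Some list members are counted in their lists but not reported here by name. Coordinates are from GENCODE M21 (GRCm38), which held 9321 of the 9643 symbols; promoters from RefSeq matched 7394. Tables and figures used Python 3.11.15, NumPy 2.4.6, pandas 2.3.3 and matplotlib 3.10.9. The fit was tested on simulated data. Alternatives changed the pseudocount, the filter, the scaling, the variance model, the block and the libraries used.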

Additional observations from a re-analysis of the deposited data

How the results depend on the processing

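Scaling moved the counts most. On the scale as deposited 1731 genes rose and 4212 fell, and with every library set to the same summed RPKM 1333 rose and 5085 fell, against 2760 and 1984 relative to the median gene. Under the other alternatives tried, both counts stayed within 1.5 times of these values, and under none was a call made in the opposite direction to the one reported. Leaving out 1 library at a time gave 2745 to 2758 rises and 1979 to 2000 falls. The fit with the replicate block gave 2760 rises and 1984 falls, and it changed no call of a gene named here; the numbers do not pair these libraries.

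Single genes were followed through the alternatives only where they are named here. Of those without a call, some passed 2-fold in the other direction, and only with the same summed RPKM. They were Calm3 at −1.17, Cpa3 at −1.12, Ppbp at −1.12 and Gp9 at −1.16 on the log2 scale. That scaling lowers the median gene by construction. Left-out libraries ended calls of Pf4 (−0.96 and −0.99) and Alas2, in addition to those given with the results. Genes near 0 RPKM in HSPC rest on few reads, and their changes depend on the 0.5 RPKM added. With 2 libraries a group, a spread specific to either cell type is poorly estimated.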
